A study of Mus musculus with 9 samples.

Results

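The 5 genes Carns1, Cndp2, Slc15a2, Slc15a3 and Slc15a4 make, split or carry small peptides such as carnosine. They were taken by symbol from a table of 26683 genes, and all 5 were among the 12738 genes that passed the filter on low counts. They were chosen with their CPM in KO and WT libraries and their range between libraries already known. Differences between KO and WT and between libraries in these 5 genes are therefore described without a test. The libraries hold RNA of regulatory T cells (Treg cells) from spleen, CD4+ lymphocytes that restrain immune responses and are defined by the transcription factor Foxp3. The 4 KO mice carried a floxed gene for estrogen-related receptor gamma together with a Cre recombinase expressed from Foxp3 (labelled EsrrgNf/f.Foxp3YFP-Cre), and the 5 WT mice carried the same Cre without a floxed allele named (B6N.Foxp3YFP-Cre). All 9 mice were labelled female and 2 to 3 months old, with a library for each animal. Cre was thus present in both groups, driven in cells that express Foxp3.

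Carnosine is a dipeptide of beta-alanine and histidine that buffers protons and binds metals, and it is best known from muscle and brain. Carnosine synthase, the product of Carns1, joins these amino acids at the cost of ATP, while the cytosolic dipeptidase encoded by Cndp2 splits a broad range of dipeptides. The SLC15 carriers move peptides together with protons: SLC15A2 imports short peptides at the cell surface, whereas SLC15A3 and SLC15A4 sit in endosomes and lysosomes and also carry histidine. In mouse B cells and plasmacytoid dendritic cells SLC15A4 is required for signals from endosomal Toll-like receptors.

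Library totals lay between 15269014 and 17425634 counts. Esrrg itself had 0 counts in all KO and all WT libraries, which allows up to 0.0206 CPM (counts scaled to library size) over the 9 libraries together, so the targeted gene gives no check of the labels. The 8 listed Treg markers were all detected and summed to between 4667 and 5118 CPM in KO and between 4724 and 5002 CPM in WT libraries. KO 4 stood apart in Xist, the transcript of the inactive X chromosome, with 27 counts, while each of the other 8 libraries had between 27355 and 35693. The KO 4 value goes against its label as female. KO 1 and KO 4 had the highest summed levels of 9 macrophage markers, all tested (93.9 and 148 CPM, against 26.3 to 79.2 CPM elsewhere), of 8 neutrophil markers, 4 of them tested (43.3 and 138 CPM, against 1.84 to 7.15 CPM) and of 6 plasma cell markers, 5 of them tested (174 and 528 CPM, against 35.8 to 89.0 CPM). The same libraries were highest, by less, for 8 B cell markers, 5 of them tested (53.7 and 47.1 CPM, against 32.35 to 41.3 CPM). They were also highest for 5 conventional dendritic cell markers, 2 of them tested (7.17 and 9.81 CPM, against 2.73 to 6.76 CPM). Of the tested markers in these lists 0 passed by edgeR, and none was at 0 in every library.

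Carns1 had the clearest separation of the groups among the 5 genes. It lies on the minus strand of chromosome 19 (mm10, 4164324 to 4175479). Its counts were 1001, 975, 931 and 887 in KO 1 to KO 4, against 1884, 1615, 1930, 1647 and 1699 in WT 1 to WT 5. Scaled to library size these were 57.1, 62.6, 61.1 and 54.4 CPM in KO, against 114, 97.9, 117, 108 and 106 CPM in WT. Every KO library lay below every WT library, including KO 4 with its low Xist count. The mean was 58.8 ± 3.76 CPM in KO (SD, n = 4) and 109 ± 7.24 CPM in WT (SD, n = 5), or 45.9% lower in KO, and the log2 fold change, KO over WT, was -0.89 ± 0.06 (SE). Without KO 1 and KO 4 it was -0.81, and over the fits that left out 1 library at a time it ran from -0.92 to -0.85. Carns1 was the only member with an adjusted p under 0.05 in edgeR's quasi-likelihood fit over all genes, a threshold that 3.28% of tested genes passed, and the only member whose groups did not overlap, as was the case for 9.07% of tested genes. As the genes were chosen with these values known, nothing is read from either count.

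**Figure D1:**
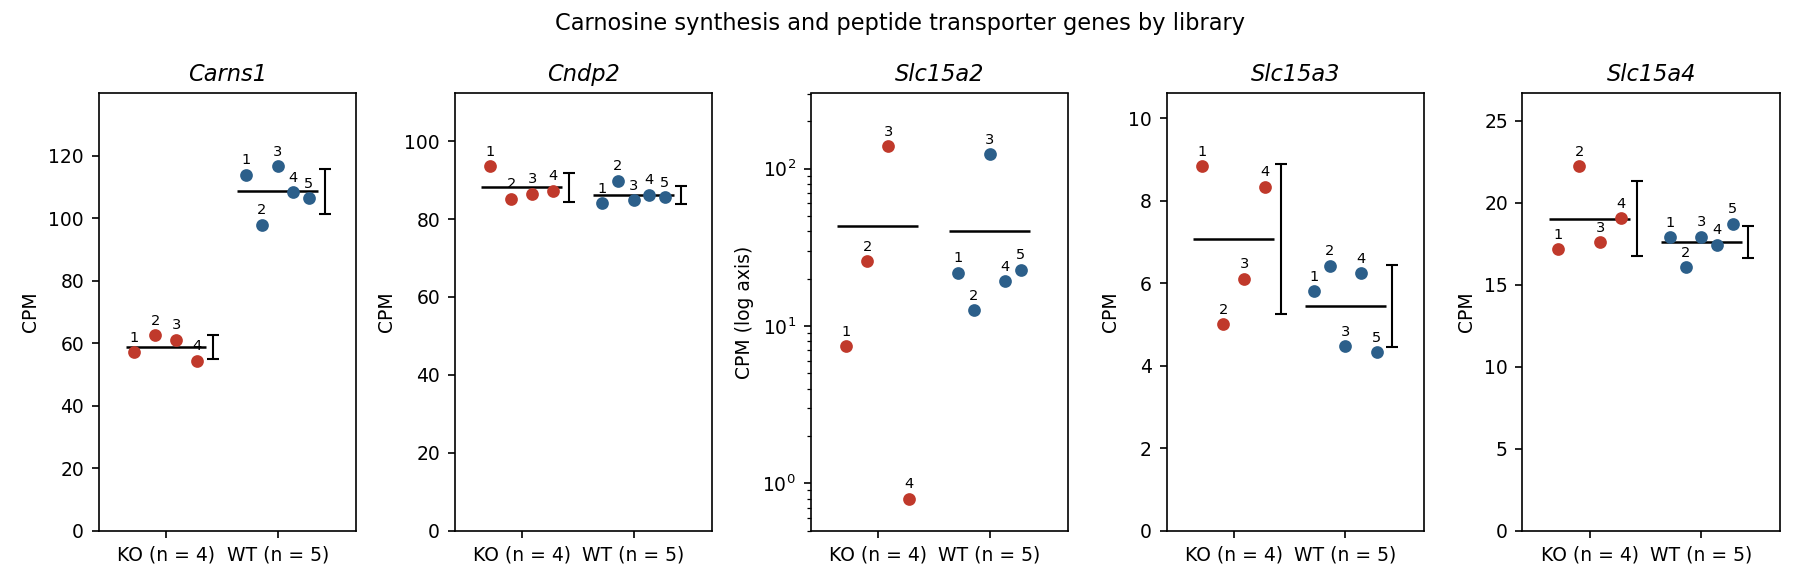
Level of each of the 5 genes in CPM, with 1 point for each library (numbers are the replicate), KO to the left of WT; horizontal lines are group means and, except for Slc15a2, vertical bars are ± SD (n = 4 KO and 5 WT), with a log axis for Slc15a2 only. Carns1 lies between 54.4 and 62.6 CPM in KO and between 97.9 and 117 CPM in WT, whereas Slc15a2 spans 0.797 to 139 CPM with its highest values in KO 3 and WT 3.

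Few counts were listed for the gene that overlaps Carns1 in the table. The antisense gene Gm17552, which overlaps 4719 bases of Carns1, had between 1 and 8 counts in KO and between 3 and 6 counts in WT libraries. Without the strand setting of the counting, reads of the 2 genes cannot be told apart. A further annotated transcript on the same strand, AC109138.8, was not analysed here.

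The genes beside Carns1 had smaller differences. The nearest tested neighbours were Rps6kb2, which encodes a kinase of ribosomal protein S6 and ends 0.97 kb away, and Tbc1d10c, which encodes carabin, an inhibitor of calcineurin and Ras, and lies 7.93 kb away. Their log2 fold changes were -0.07 ± 0.05 and -0.03 ± 0.06 (SE), with edgeR adjusted p of 0.467 and 0.798. Within 1 Mb on either side 57 genes were tested, of which 3 were higher and 2 lower in KO (8.77%, against 3.28% of all tested genes), with a median log2 fold change of 0.02.

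Cpt1a, which encodes the carnitine palmitoyltransferase that admits fatty acids into mitochondria, rose by 0.46 ± 0.07 (log2, SE, as for the genes that follow) at a distance of 779 kb (edgeR adjusted p = 0.00682) and passed in all 9 fits that left out 1 library. The mitochondrial ribosome gene Mrpl21, 871.5 kb away, rose by 0.22 ± 0.05 (adjusted p = 0.0368). Cdk2ap2, 65.31 kb away and named for a partner of the kinase CDK2, rose by 0.22 ± 0.04 (adjusted p = 0.0189). The lipid transfer protein gene Pitpnm1, 50.4 kb away, changed by -0.16 ± 0.03 (adjusted p = 0.0271) and the kinesin light chain gene Klc2, 932 kb away, by -0.25 ± 0.05 (adjusted p = 0.0292). The neighbours that were called thus went in both directions and by less than Carns1. After group means were taken off, Pearson r with Carns1 over the 9 libraries ran from -0.867 (Ndufs8) to 0.869 (Pitpnm1) among the 57 genes. Without 1 library the log2 fold changes kept their size, at 0.20 to 0.25 for Cdk2ap2, -0.18 to -0.15 for Pitpnm1, -0.29 to -0.22 for Klc2 and 0.21 to 0.24 for Mrpl21, while the adjusted p moved across the threshold. The Cdk2ap2 call ended without KO 3, WT 3 or WT 4 (adjusted p 0.0522 to 0.0634), and the Pitpnm1 call without KO 3, KO 4, WT 1, WT 3, WT 4 or WT 5 (0.0516 to 0.0857). The Klc2 call ended without KO 3, KO 4, WT 3, WT 4 or WT 5 (0.0581 to 0.0965), and the Mrpl21 call in all such fits other than those without KO 1 or WT 2 (0.0535 to 0.113).

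**Figure D2:**
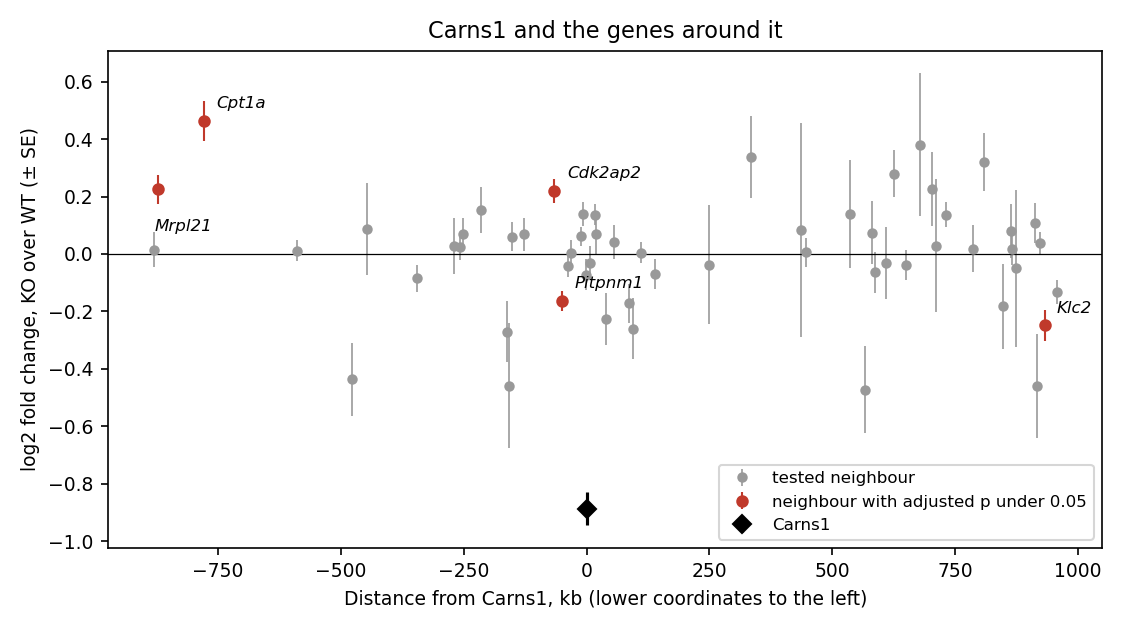
log2 fold change (KO over WT, bars ± SE from edgeR) of Carns1 (black diamond) and of the 57 tested genes within 1 Mb, plotted by distance in kb from Carns1; red points are neighbours with an adjusted p under 0.05. Carns1 lies at -0.89, apart from its neighbours, of which the called genes range from -0.25 (Klc2) to 0.46 (Cpt1a).

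Cndp2, the gene of the dipeptide-splitting enzyme, was the most even of the 5 genes. Located on chromosome 18 (84667465 to 84685702, minus strand), it had 93.5, 85.2, 86.5 and 87.3 CPM in KO 1 to KO 4, against 84.1, 89.8, 84.8, 86.3 and 85.6 CPM in WT 1 to WT 5. The groups overlapped, and the highest library exceeded the lowest by a factor of 1.11. The mean was 88.1 ± 3.69 CPM in KO (SD, n = 4) and 86.1 ± 2.23 CPM in WT (SD, n = 5), a log2 fold change of 0.03 ± 0.04 (SE). Without KO 1, its highest library, the log2 fold change was 0.0023, and without KO 1 and KO 4 it was -0.0070. Per kilobase of exon, the ratio of Carns1 to Cndp2 was 0.573, 0.690, 0.663 and 0.585 in KO 1 to KO 4, against 1.27, 1.02, 1.29, 1.18 and 1.17 in WT 1 to WT 5. Carns1 was thus below Cndp2 in each KO library and above it in each WT library on this scale. With the longest annotated transcript as the length, Cndp2 stood above Carns1 in all 9 libraries, so that order depends on the length chosen. Cndp1, a carnosinase gene, had 0 counts in every library (up to 0.0206 CPM). None of the 6 genes tested within 1 Mb of Cndp2 passed the edgeR threshold. On either side the nearest of them were Fam69c (log2 fold change 0.84 ± 0.30, edgeR adjusted p = 0.137), at 1.76 CPM in KO and 0.97 CPM in WT and with a log2 fold change of 0.51 without KO 4, and the zinc finger gene Zfp407 (-0.09 ± 0.06, adjusted p = 0.390).

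Slc15a2 differed between mice of the same group more than between the groups. This gene of the cell surface peptide importer lies on the minus strand of chromosome 16 (36750177 to 36784962). It had 130, 403, 2118 and 13 counts in KO 1 to KO 4, against 360, 208, 2052, 293 and 363 counts in WT 1 to WT 5. In CPM these were 7.41, 25.9, 139 and 0.797 in KO, against 21.8, 12.6, 124, 19.3 and 22.7 in WT. KO 3 and WT 3 were high, KO 4 was lowest, and the other 6 libraries lay between 7.41 and 25.9 CPM. KO 3 exceeded the next KO library 5.37-fold and WT 3 exceeded the next WT library 5.45-fold. The mean was 43.3 ± 64.7 CPM in KO (SD, n = 4) and 40.1 ± 47.0 CPM in WT (SD, n = 5), with a log2 fold change of 0.10 ± 1.23 (SE). This value had no stable direction. It was -1.84 without KO 3, 1.17 without WT 3, 0.50 without KO 4, -0.76 without KO 3 and WT 3 together, and -1.245 by limma-voom.

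The start of the gene is shown because Slc15a2 varied most of the 5 genes, with the start of its more even relative Slc15a4 beside it. Each window runs from 250 bases before to 50 bases after an annotated start in RefSeq (GRCm38.p6), is written 5′ to 3′ on the gene's strand, and has the bases from the start onward in capitals. The Slc15a2 window is chr16:36784913-36785212 (minus strand) and the Slc15a4 window is chr5:127617343-127617642 (minus strand).
Slc15a2: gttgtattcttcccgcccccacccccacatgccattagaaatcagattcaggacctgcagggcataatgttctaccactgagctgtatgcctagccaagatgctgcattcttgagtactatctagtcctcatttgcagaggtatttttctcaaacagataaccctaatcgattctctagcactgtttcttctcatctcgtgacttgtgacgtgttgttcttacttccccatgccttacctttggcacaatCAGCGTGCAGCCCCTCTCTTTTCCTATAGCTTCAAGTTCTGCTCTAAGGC
Slc15a4: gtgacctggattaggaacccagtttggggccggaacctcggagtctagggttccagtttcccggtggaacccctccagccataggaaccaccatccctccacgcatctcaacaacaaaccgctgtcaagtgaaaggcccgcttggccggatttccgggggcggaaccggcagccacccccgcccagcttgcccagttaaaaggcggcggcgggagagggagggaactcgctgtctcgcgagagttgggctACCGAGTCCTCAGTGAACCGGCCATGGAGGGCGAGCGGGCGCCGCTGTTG
The Slc15a2 window held 5 CpG dinucleotides at 46.3% GC and the Slc15a4 window 23 at 64.0% GC, against medians of 7 and 52.7% over 32841 promoter windows. Neither held the letters AAGGTCA, the core recognised by estrogen-related receptors, or the longer form TNAAGGTCA on either strand. These occurred in 4.72% and 1.28% of all windows, the longer form containing the shorter. A GENCODE M21 transcript begins at the Slc15a2 start shown. None begins at the Slc15a4 start shown, and that window lies inside the span of Slc15a4 in GENCODE M21 (127595664 to 127632897), not at its end. Windows for the other members were not used here.

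The spread of Slc15a2 between libraries was among the widest of the expressed genes. Its biological coefficient of variation (the spread between libraries of a group beyond counting error) was 124%, against 8.34% for the trend at its level, and its dispersion ranked 3 among the 9840 genes with a mean of at least 5 CPM. The highest library exceeded the lowest 174-fold, rank 5 among these genes. This ratio rests on KO 4, whose 13 counts allow 0.424 to 1.36 CPM (95% interval for counting error). The next lowest library, KO 1, was at 7.41 CPM. Without 1 library the coefficient of variation ran from 102% (without KO 4) to 130% (without KO 2). Slc15a2 was also the only gene of the 9840 that was at least 1.5-fold higher in both KO 3 and WT 3 than in each of the other 7 libraries, a comparison chosen after its values were seen. These 2 libraries share the number 3 in their titles but not in their bracketed library names, where KO 3 bears the number 4. Their library totals were 15386929 counts in KO 3 and 16420651 in WT 3. KO 1 and KO 4, the KO libraries with the lowest Slc15a2, were those with the highest macrophage, neutrophil and plasma cell markers, and KO 4 that with the low Xist count. In WT 1 to WT 5 the macrophage markers summed to 79.2, 26.3, 28.7, 47.9 and 34.4 CPM. Slc15a2 there was at 21.8, 12.6, 124, 19.3 and 22.7 CPM, lowest in WT 2, which had the lowest sum. Whether the markers or the low Xist count had a part in the Slc15a2 level was not tested. In bulk samples fewer cells that express a gene and less RNA per cell cannot be told apart.

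**Figure D3:**
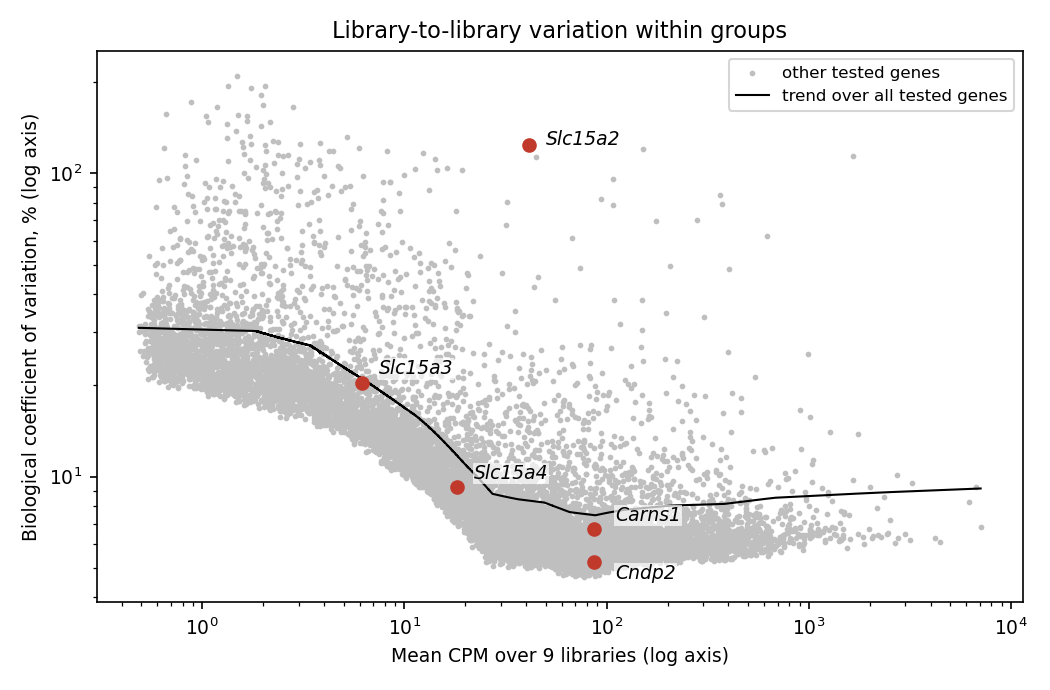
Biological coefficient of variation within groups (percent, log axis) against mean CPM over the 9 libraries (log axis) for all 12738 tested genes in grey, with the trend in black and the 5 genes in red. Slc15a2 lies at 124%, far above the trend of 8.34% at its level, and the other 4 genes lie below the trend, between 5.23% and 20.4%.

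Genes around Slc15a2 varied far less between libraries. Of 19 tested genes within 1 Mb, 0 passed the edgeR threshold for KO against WT, and the widest ratio of highest to lowest library was 2.03 (Polq, a DNA polymerase gene). The nearest tested genes were Ildr1, an immunoglobulin-like domain receptor gene 23.4 kb away, and Iqcb1, a gene of the primary cilium 43.4 kb away. Ildr1 had a log2 fold change of 0.05 ± 0.12 (edgeR adjusted p = 0.857) and Iqcb1 of -0.30 ± 0.09 (adjusted p = 0.0825), and their ratios of highest to lowest library were 1.32 and 1.41. After group means were taken off, Pearson r with Slc15a2 over the 9 libraries ran from -0.753 to 0.437 among the 19 genes. The processed pseudogene Gm8425 on the opposite strand within Slc15a2 had between 3 and 6 counts in KO and between 1 and 6 counts in WT libraries.

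**Figure D4:**
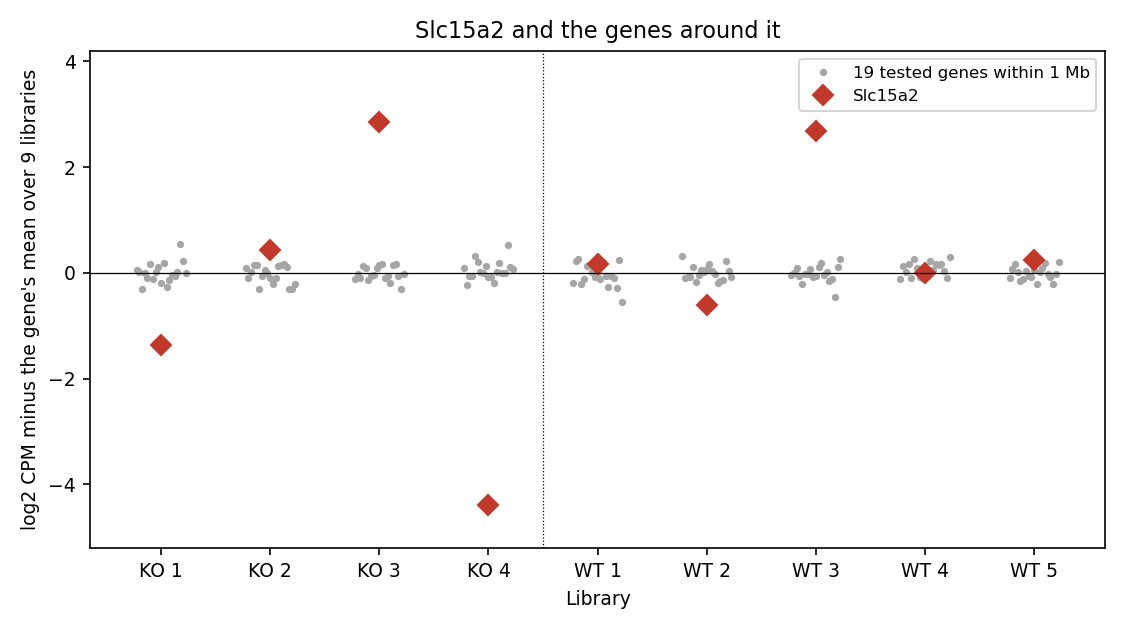
log2 CPM minus each gene's own mean over the 9 libraries, for Slc15a2 (red diamonds) and the 19 tested genes within 1 Mb of it (grey points), with KO libraries left of the dotted line and WT libraries right of it. Slc15a2 lies high in KO 3 and WT 3 and lowest in KO 4, while the grey points stay near 0 in all libraries.

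Slc15a3, which encodes an endolysosomal peptide and histidine carrier known from macrophages, had the lowest mean level of the 5 genes per kilobase of exon. It lies on the plus strand of chromosome 19 (10839727 to 10859362) and had 155, 78, 93 and 136 counts in KO 1 to KO 4, against 96, 106, 74, 95 and 69 counts in WT 1 to WT 5. This gave 8.83, 5.01, 6.11 and 8.34 CPM in KO, against 5.80, 6.43, 4.47, 6.25 and 4.32 CPM in WT. KO 1 and KO 4 were above all WT libraries, whereas KO 2 and KO 3 lay among them. The mean was 7.07 ± 1.82 CPM in KO (SD, n = 4) and 5.45 ± 0.994 CPM in WT (SD, n = 5), with a log2 fold change of 0.38 ± 0.19 (SE), or 0.03 without KO 1 and KO 4. These are the libraries with the highest macrophage markers. All 9 macrophage markers were tested, 0 passed, none was at 0 in all libraries, and all 9 had a positive log2 fold change. They summed to 93.9, 27.2, 48.4 and 148 CPM in KO 1 to KO 4. In WT 1 to WT 5 the sums were 79.2, 26.3, 28.7, 47.9 and 34.4 CPM. WT 2, with the lowest of these, had the highest Slc15a3 of the WT libraries (6.43 CPM). The part of the macrophage markers in the Slc15a3 level was not tested. The opposite-strand gene Tmem132a, which overlaps 1541 bases of Slc15a3, had 5 to 8 counts in KO and 4 to 51 counts in WT libraries. Of 35 tested genes within 1 Mb 1 passed, Tmem109 (named for a transmembrane protein, 11.3 kb away), which rose to 43.4 ± 3.21 CPM in KO, against 34.99 ± 1.09 CPM in WT (log2 fold change 0.31 ± 0.06, edgeR adjusted p = 0.0141). Without KO 4 it narrowly missed the threshold (adjusted p = 0.0507) at a log2 fold change of 0.27. Without KO 1 and KO 4 it was at 0.21 (adjusted p = 0.108), and without KO 3 and WT 3 at 0.34 (0.0561). On the other side the T cell surface receptor gene Cd6 had 0.08 ± 0.04 (adjusted p = 0.224).

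Slc15a4, which encodes the endolysosomal carrier used by Toll-like receptor signalling, overlapped between the groups. It lies on the minus strand of chromosome 5 (127595664 to 127632897). Its level was 17.2, 22.2, 17.6 and 19.1 CPM in KO 1 to KO 4, against 17.9, 16.1, 17.9, 17.4 and 18.7 CPM in WT 1 to WT 5. Only KO 2 and KO 4 exceeded all WT libraries. The mean was 19.01 ± 2.29 CPM in KO (SD, n = 4) and 17.6 ± 0.980 CPM in WT (SD, n = 5), a log2 fold change of 0.11 ± 0.08 (SE), which was 0.03 without KO 2. The gene Glt1d1, which overlaps it on the opposite strand, had 0 counts in all KO and at most 1 in WT libraries, and 0 genes were tested within 1 Mb. Slc15a1, the intestinal relative of Slc15a2, summed to 21 counts over all libraries.

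Levels between genes were compared per kilobase of exon, over the union of annotated exons. Cndp2 averaged 20.7 ± 0.869 CPM per kilobase in KO and 20.3 ± 0.524 in WT (SD, n = 4 KO and 5 WT here and in the following values). Carns1 averaged 13.0 ± 0.830 in KO and 24.0 ± 1.60 in WT. These 2 genes exchanged places between the groups. Slc15a2 averaged 5.88 ± 8.79 in KO and 5.44 ± 6.39 in WT. Slc15a4 averaged 3.58 ± 0.431 in KO and 3.31 ± 0.184 in WT, and Slc15a3 1.29 ± 0.331 in KO and 0.993 ± 0.181 in WT. Cndp2 stood above Slc15a4 and Slc15a4 above Slc15a3 in all 9 libraries. Slc15a2 moved through this order, since it was above Slc15a4 in KO 3 and WT 3, below Slc15a3 in KO 1 and KO 4, and between them in the other 5 libraries. With the longest annotated transcript as the length, Slc15a2 was above Slc15a3 in KO 1 (1.86 against 1.81 CPM per kilobase) and below it in KO 4 only. The ratio of Slc15a2 to Slc15a4 per kilobase of exon was 0.312, 0.841, 5.70 and 0.0302 in KO 1 to KO 4, against 0.878, 0.566, 4.99, 0.798 and 0.876 in WT 1 to WT 5. Neighbours in the order other than Slc15a2 differed by more than their SDs within each group, on this choice of length.

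The members had no common direction across mice. After group means were taken off, Pearson r between pairs of members ran from -0.734 (Cndp2 with Slc15a4) to 0.755 (Carns1 with Slc15a2) over the 9 libraries, as a description without a test. Among named genes with a mean of at least 5 CPM, those most like Carns1 over all 9 libraries included the transcription factor subunit gene Snapc1 (r = 0.983) and Frmd6 (0.978), a likeness that includes the group difference. Snapc1 and Frmd6 both lie on chromosome 12. With group means off the genes most like Carns1 were Wipi2 (0.964), Ubr1 (0.954) and Hsdl1 (0.947). For Slc15a2 the closest were the pseudokinase gene Trib2 (0.923), Ip6k2 (0.916) and Parp3 (0.913), and with group means off Sh3kbp1 (0.964), B4galnt1 (0.956) and Adat1 (0.947). None of these lies on chromosome 16. Without KO 4, r with Slc15a2 fell to 0.815 for Trib2, 0.807 for Ip6k2 and 0.775 for Parp3. With group means off it fell to 0.924 for Sh3kbp1, 0.930 for B4galnt1 and 0.901 for Adat1. Tcn2, a gene of vitamin B12 transport, was closest to Cndp2 on both measures (0.973 and 0.970), followed by Izumo1r (0.964) and Lsm5 (0.960) and, with group means off, by Zfp930 (0.969) and Izumo1r (0.958). Slc15a3 was closest to Cchcr1 (0.970), Acadl (0.969) and Apaf1 (0.969), and with group means off to Acadl (0.980), Manbal (0.969) and Uap1l1 (0.968). Slc15a4 was closest to Fhod1 (0.967), Dhrs7b (0.965) and Ube2q2 (0.959), and with group means off to Rassf3 (0.979), Fbxo31 (0.969) and Fhod1 (0.962). Without KO 2, r with Slc15a4 fell to 0.856 for Ube2q2, 0.900 for Dhrs7b and, with group means off, 0.9095 for Fbxo31. Without KO 1, r with Cndp2 over all groups fell to 0.8885 for Izumo1r and 0.894 for Lsm5. For Carns1 and Slc15a3 it stayed at 0.932 or above without 1 library. Apart from the values without 1 library, each r with such a gene is among the 3 highest found in a search over the expressed genes with 9 libraries. None carries a test.

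Other genes of the same pathways were read from 6 lists, with the members left out. Of 62 tested entries 4 rose and 0 fell in KO, or 6.45% called, against 1.4% of all tested genes called higher and 1.88% called lower. The lists were chosen with earlier results of these data known, so nothing is read from this share. The genes that rose were the peptide carrier gene Abcb9, the peptidase genes Nln and Dpp7, and the glutathione reductase gene Gsr. Of these, only Abcb9 was still called without KO 1 and KO 4.

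In the list of carnosine and beta-alanine metabolism 0 of 5 tested genes passed by edgeR, with 2 at an unadjusted p under 0.05 and a median log2 fold change of -0.14, against 0.0052 over all tested genes. The gene with the smallest p was Aldh6a1, which encodes a dehydrogenase for the breakdown products of valine and beta-alanine, at 18.3 ± 1.25 CPM in KO and 23.2 ± 2.76 CPM in WT (log2 fold change -0.35 ± 0.09, edgeR adjusted p = 0.0558). It passed without WT 2 (adjusted p = 0.0226), among genes averaging 5 CPM or more (0.0465) and by DESeq2 (0.0239). Slc6a6, the carrier for taurine and beta-alanine, was at 180 ± 7.20 CPM in KO and 197 ± 13.2 CPM in WT (-0.13 ± 0.05, adjusted p = 0.162). Csad, a decarboxylase gene of taurine synthesis, was at -0.18, and the carnosine methyltransferase gene, listed as 2410127L17Rik, at -0.14, with edgeR adjusted p of 0.255 and 0.641. The remaining tested gene was Abat, at 0.07 (adjusted p = 0.915).

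For histidine supply and use 0 of 5 tested genes passed by edgeR and 0 by DESeq2, with 1 at an unadjusted p under 0.05. The histidyl-tRNA synthetase gene Hars was at 67.1 ± 4.01 CPM in KO and 59.2 ± 4.96 CPM in WT (log2 fold change 0.18 ± 0.06, edgeR adjusted p = 0.126). Hars passed without WT 2 (adjusted p = 0.0305). Slc7a5, which imports histidine and other large amino acids, was at 0.11 ± 0.09 (adjusted p = 0.513), and at 0.015 without KO 4, its highest KO library.

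Among dipeptidases and aminopeptidases 2 of 20 tested genes rose and 0 fell, with a median log2 fold change of 0.10. Nln, which encodes the peptidase neurolysin, had 17.6, 18.2, 15.7 and 17.8 CPM in KO 1 to KO 4, against 13.1, 13.2, 13.7, 11.0 and 11.6 CPM in WT 1 to WT 5. The groups did not overlap, and its log2 fold change was 0.47 ± 0.08 (SE, edgeR adjusted p = 0.0148). Dpp7, a lysosomal dipeptidyl peptidase gene, had 18.8, 16.1, 15.7 and 16.4 CPM in KO, against 12.6, 13.0, 12.8, 12.9 and 12.9 CPM in WT. It rose by 0.38 ± 0.07 (adjusted p = 0.0203), again without overlap. Without KO 4 both narrowly missed the threshold (adjusted p = 0.0507 each) at log2 fold changes of 0.45 for Nln and 0.39 for Dpp7. Without KO 1 and KO 4 neither passed, at 0.44 for Nln (adjusted p = 0.0914) and 0.30 for Dpp7 (0.123). Dpp7 also missed it without WT 3, WT 4 or WT 5, with an adjusted p of at most 0.0634 and log2 fold changes of 0.38.

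Of 11 tested peptide and lysosomal amino acid carriers 1 rose, Abcb9. It encodes the lysosomal transporter TAPL, which moves peptides into lysosomes with ATP. Abcb9 had 104, 84.2, 84.4 and 88.1 CPM in KO 1 to KO 4, against 59.4, 69.1, 67.1, 67.6 and 63.6 CPM in WT 1 to WT 5. Every KO library was above every WT library. The log2 fold change was 0.46 ± 0.07 (SE, edgeR adjusted p = 0.00489), and the call held in all 9 fits that left out 1 library (adjusted p 0.0052 to 0.0195). Tap1 and Tap2, its relatives that load peptides in the endoplasmic reticulum, were at -0.09 (adjusted p = 0.224) and -0.0089 (0.915).

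Of 11 tested genes of Toll-like and NOD receptor signalling, the pathways in which SLC15A4 takes part in other cells, 0 passed by edgeR and 1 had an unadjusted p under 0.05. Nod1, an intracellular sensor of bacterial wall peptides, was at 116 ± 9.20 CPM in KO and 133 ± 6.40 CPM in WT (log2 fold change -0.20 ± 0.06, edgeR adjusted p = 0.0630). Nod1 passed without KO 2 (0.0317), without WT 2 (0.0305), with total-count scaling (0.0446), among genes averaging 5 CPM or more (0.0451) and by DESeq2 (0.0183). The kinase gene Irak1 was at -0.08 ± 0.04 (adjusted p = 0.244).

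For glutathione synthesis and breakdown 1 of 10 tested genes rose. Gsr, which restores reduced glutathione, had 42.5, 38.97, 35.6 and 44.5 CPM in KO 1 to KO 4, against 35.0, 34.9, 32.3, 32.95 and 33.5 CPM in WT 1 to WT 5. It rose by 0.26 ± 0.06 (SE, edgeR adjusted p = 0.0469), with its highest values in KO 1 and KO 4, the libraries with the most macrophage, neutrophil and plasma cell marker counts, whose part in the result was not tested. Without both it was at 0.14 (adjusted p = 0.329). The call ended without KO 1, KO 4, WT 1, WT 3, WT 4 or WT 5 (adjusted p 0.0554 to 0.146) and with total-count scaling or limma-voom. Its log2 fold change ran from 0.21 to 0.32 over the fits without 1 library.

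**Figure D5:**
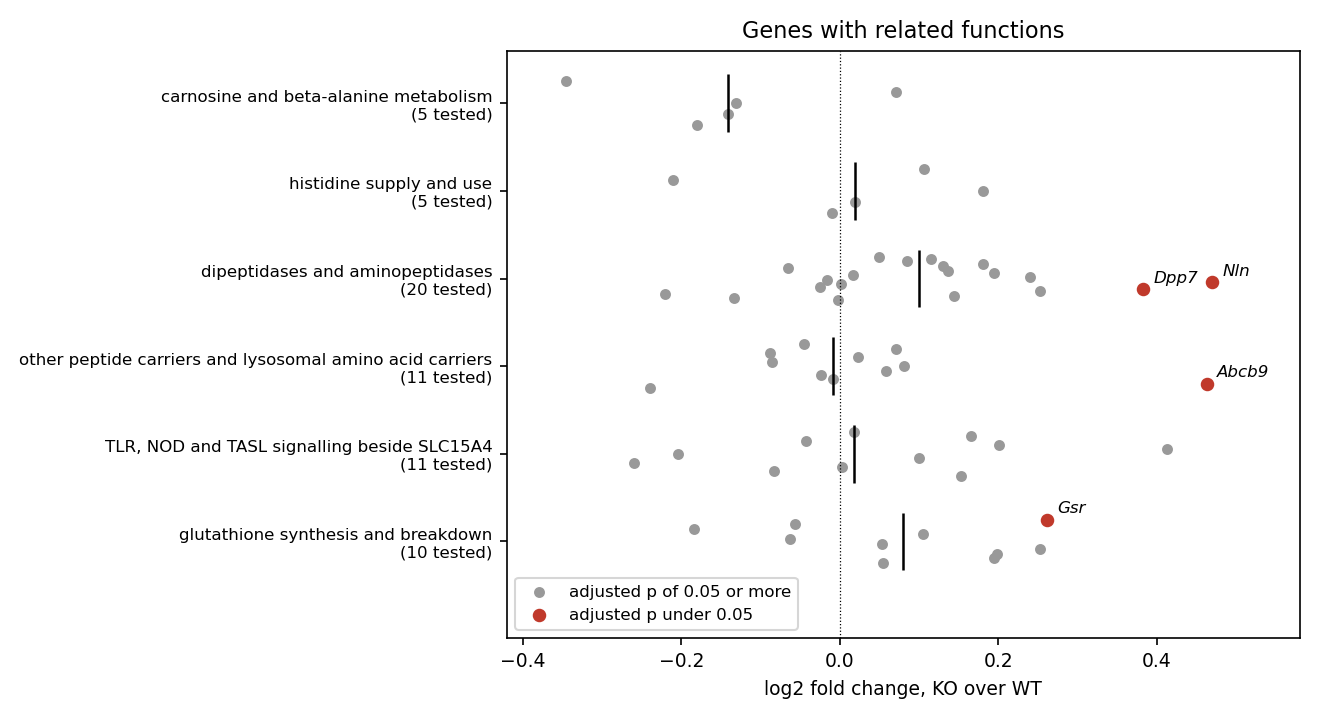
log2 fold change (KO over WT) of each tested gene in the 6 lists of related function, with 1 point for each gene, genes of adjusted p under 0.05 (edgeR) in red and the list's median as a black line. Abcb9 (0.46), Nln (0.47), Dpp7 (0.38) and Gsr (0.26) are the called genes, and all lie to the right of 0.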

How the data were processed

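Total RNA of CD4+Foxp3+ splenic Treg cells from 4 KO and 5 WT mice was extracted per mouse and prepared with the stranded TruSeq kit, per the labels' protocols. Raw counts by gene symbol were deposited by the authors in 1 table with 9 columns, each matched to a sample by the bracketed name in its title. STAR 2.7, DESeq2 and mm10 are named in the submitters' processing notes without a role. The counting program, its annotation and its strand setting were not given in the sources used here.

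The main test was that of edgeR 4.0.16, run under R 4.3.3 on the counts as deposited (robust quasi-likelihood fit, trimmed-mean scaling, default filter, two-sided), with Benjamini-Hochberg adjustment over 12738 genes and a threshold of 0.05. Standard errors come from the fold change and the F statistic. CPM values use the scaled library sizes, marker sums the raw totals, and log2 CPM a prior count of 2. The test was checked on simulated data for the comparison of KO with WT (12738 genes, 50 changed per size). Of genes changed 1.2-fold it found 18%, of those changed 1.5-fold 62%, of those changed 2-fold 68%, and of those changed 4-fold 92%. False calls made up 6.98%. Genes were placed with GENCODE M21 (mm10), 24788 by name and 615 by a RefSeq synonym. RefSeq promoter windows matched 2 of the 5 members.

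The members and gene lists were chosen with earlier results of these data known. The named genes are the members, up to 4 called genes of each list by smallest p or else the 2 with the smallest p, the nearest tested gene on each side of a member and up to 6 called genes within 1 Mb, and the 3 genes most correlated with each member on 2 measures. Of these, 1 correlated gene is not reported here. Other genes are named to complete a list. Alternatives were other scalings and filters, DESeq2 1.42.0, limma-voom (limma 3.58.1), replicate blocks and leaving out libraries, of which leaving out KO 3 and WT 3 together was chosen after seeing the data. Floors (3 counts) cover counting error only.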

Additional observations from a re-analysis of the deposited data

Results flagged for a closer look

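Slc15a2 in WT 3, at 124 CPM, lay far above the other WT libraries (12.6 to 22.7 CPM), with a gap of 0.909 of the group's range. The high value of KO 3 (139 CPM) has the same form among 4 KO libraries, but KO 3 did not reach the corresponding limit. Slc7a5 in KO 4, at 67.8 CPM, was above the other KO libraries (52.6 to 55.0 CPM). Cdk2ap2 in KO 4, at 199 CPM, was below the other KO libraries (216 to 217 CPM), and Zfp407 in WT 1, at 42.8 CPM, was above the other WT libraries (37.7 to 39.0 CPM). These are 4 of 56 groups of libraries examined for named genes, and chance flags about 1 in 20 groups.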

How the results depend on the processing

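The log2 fold changes of Carns1, Cndp2 and Slc15a4 moved by less than the spread between replicates under all alternatives run, and that of Cndp2 turned below 0 without KO 1 and KO 4 (-0.0070). Slc15a3 moved to 0.025 without KO 1 and KO 4. With the longest transcript as length, the mean level over all libraries became 40.4 CPM per kilobase for Cndp2 and 6.21 for Slc15a4. The number of genes called, 418 by edgeR, was 906 by DESeq2, 118 without KO 1 and KO 4, 45 without KO 3 and WT 3, and ran from 97 (without WT 3) to 697 (without WT 2) when 1 library was left out (182 without KO 3, 103 without KO 4, 134 without WT 4, 117 without WT 5). Of the genes near members, 6 called became 15 by DESeq2, 10 among genes averaging 5 CPM or more, 2 without KO 1 and KO 4, 1 without KO 3 and WT 3, 3 within 500 kb, and 2 to 11 without 1 library.

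The list of carnosine and beta-alanine metabolism gave 1 call (Aldh6a1) by DESeq2 and among genes averaging 5 CPM or more, and 0 to 1 without 1 library. Histidine supply gave 0 to 1 without 1 library. Dipeptidases gave 0 calls without KO 1 and KO 4, 1 without KO 3 and WT 3, and 0 to 4 without 1 library. Peptide carriers gave 2 by DESeq2 and 1 to 2 without 1 library. Toll-like and NOD signalling gave 1 with total-count scaling, by DESeq2 and among genes averaging 5 CPM or more, and 0 to 1 without 1 library. Glutathione genes gave 0 with total-count scaling, by limma-voom, without KO 1 and KO 4, and without KO 3 and WT 3, and 0 to 1 without 1 library. The cause was not tested.

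The libraries gave no sign that replicate numbers pair the samples, though low correlations cannot exclude it. Same-numbered libraries deviated from their group means with correlations of 0.099, -0.0622, 0.100 and -0.0669 (title numbers 1 to 4) and 0.099, 0.0868, 0.0571 and -0.260 (bracketed numbers 1, 3, 4 and 5), and no KO library correlated best with its own number. A replicate block by title number was fitted without WT 5, which has no KO library of the same number. It left 26 genes called, against 117 without WT 5 and without a block. Of these 26, 1 was near a member, and 0 were among dipeptidases, peptide carriers and glutathione genes. Glutathione genes also gave 0 calls without WT 5 and without a block. The block by bracketed number was fitted without WT 2, which has no KO library of the same number. In it 456 genes were called, against 697 without WT 2 and without a block. It gave 1 call each in the lists of carnosine metabolism, histidine supply and dipeptidases, and 0 glutathione genes. The carnosine and histidine lists also gave 1 call each without WT 2 and without a block. Carns1 stood at -0.89 and -0.92 under these blocks. The Ildr1 log2 fold change ran from -0.015 to 0.12 without 1 library. Signs turned for Ildr1 without KO 1 (-0.015), KO 3 (-0.0056) or WT 5 (-0.0031) and under the title block (-0.0065), and for Tbc1d10c without KO 1 and KO 4 (0.027), neither of which was called in any fit.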
